A study of Mus musculus with 8 samples.

Results

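*Tacc2*, *Tmem140*, *Fam78a*, *Sh3rf2* and *Sec14l5* are 5 genes without a settled role in skeletal muscle, of 32390 rows in the count table, and all 5 passed the filter on low counts that left 12725 rows for testing. They were chosen from the genes that the study labels for the smallest p-values of its comparison of NOX4-deficient with control gastrocnemius muscle. Their differences between genotypes are therefore given as a description and without a test. The controls were 4 *Nox4* fl/fl mice, and the NOX4-deficient group held 4 mice of genotype *Mck*-Cre;*Nox4* fl/fl, so that the floxed *Nox4* alleles were present in every animal and Cre in the latter group only. The mice were 21 months old by the labels. They were males on standard chow, from a line kept on the C57BL/6 background. Cre was driven by the muscle creatine kinase promoter, which is active mainly in skeletal muscle and less so in heart, so that *Nox4* in the other cells of the muscle was not a target. Bulk poly(A) RNA was sequenced without strand information, with between 16350548 and 19804661 counts per library. In bulk tissue, fewer cells of a type and less RNA per cell cannot be told apart.

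The 5 genes belong to unrelated families. *Tacc2* encodes a member of the transforming acidic coiled-coil proteins, which bind microtubules and centrosomes and act with the microtubule polymerase CKAP5. *Sh3rf2* encodes a RING and SH3 domain ubiquitin ligase related to the JNK pathway scaffold POSH (SH3RF1). *Sec14l5* encodes a SEC14-like protein with a CRAL-TRIO lipid-binding domain. *Tmem140* encodes a small membrane protein whose transcript is known as interferon-responsive in other cells, and *Fam78a* encodes a protein without an assigned function. NOX4, the deleted enzyme, is an NADPH oxidase that releases hydrogen peroxide, and in muscle it is studied as an inducer of the antioxidant transcription factor NFE2L2.

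*Tacc2* and *Tmem140* were lower and *Fam78a*, *Sh3rf2* and *Sec14l5* were higher in NOX4-deficient muscle. *Tacc2* stood at 1428, 1485, 1564 and 2117 CPM (counts relative to the size of each library, with TMM scaling) in control replicates 1 to 4 and at 368, 474, 433 and 446 CPM in NOX4-deficient replicates 1 to 4. The groups did not overlap, and control replicate 4 was the highest. The mean fell from 1648 ± 317 CPM in controls to 430 ± 44.8 CPM in NOX4-deficient mice (± SD over 4 mice). The log2 fold change was -1.94 with a standard error of 0.14, or 3.83-fold lower. *Tacc2* has 10 coding transcripts in the GENCODE M21 annotation, which counts per gene do not separate. *Fgfr2*, which overlaps *Tacc2* on the opposite strand in that annotation, had between 0 and 11 counts per library, against at least 6120 counts for *Tacc2*.

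*Tmem140* had 16.3, 21.1, 22.8 and 30.2 CPM in control replicates 1 to 4 and 3.97, 4.2, 3.89 and 4.51 CPM in NOX4-deficient replicates 1 to 4. All 4 NOX4-deficient libraries lay close together, well under the lowest control. The log2 fold change was -2.45 (standard error 0.18), or 5.46-fold lower, and it rested on 272 to 581 counts per control library and 66 to 83 counts per NOX4-deficient library. *Cyren*, which encodes a regulator of DNA end joining and overlaps *Tmem140* on the opposite strand, could share reads with it in unstranded libraries. Control mice had 1.97 ± 0.562 CPM of *Cyren* and NOX4-deficient mice 1.65 ± 0.358 CPM (± SD over 4 mice). Its log2 fold change was -0.25 (adjusted p = 0.625 by edgeR's quasi-likelihood test).

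Among the 5 genes, *Tmem140* had the largest fold change of those that were lower and *Fam78a* of those that were higher. To place known binding motifs beside these values, the 250 bases before the starts of 4 of the 5 genes were searched on both strands for the core of the antioxidant response element bound by NFE2L2 (TGACNNNGC), the E-boxes CACGTG and CAGCTG, and the FOXO motif GTAAACA. RefSeq (GRCm38.p6) gave 1 start for *Tmem140*, 4 for *Fam78a*, 2 for *Tacc2* and 1 for *Sec14l5*, and *Sh3rf2* was not searched. Of the 32851 windows of this length, 10.2% held the antioxidant response core, 6.02% CACGTG, 13% CAGCTG and 3.17% the FOXO motif. The window of *Tmem140* (chr6:34862896-34863145, plus strand) held the FOXO motif, its first base 116 bases before the start, and CAGCTG 52 bases before it. In the 4 windows of *Fam78a*, the antioxidant response core matched in 2 and CAGCTG in the other 2, and the window at chr2:32083706-32083955 (minus strand) held the core at 67 and 16 bases before the start. Neither window of *Tacc2* nor the window of *Sec14l5* held any of these letters. A match is a description of the sequence, and which start these muscles used was not measured. The windows of *Tmem140* and of this start of *Fam78a* are shown 5′ to 3′ because they hold the FOXO and the antioxidant response matches, with matches of any of the motifs in capitals.
Tmem140: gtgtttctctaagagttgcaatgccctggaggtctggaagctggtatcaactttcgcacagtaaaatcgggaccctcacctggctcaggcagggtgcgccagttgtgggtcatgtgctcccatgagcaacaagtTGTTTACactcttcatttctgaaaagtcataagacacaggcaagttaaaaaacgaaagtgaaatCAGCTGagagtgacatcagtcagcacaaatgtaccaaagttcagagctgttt
Fam78a: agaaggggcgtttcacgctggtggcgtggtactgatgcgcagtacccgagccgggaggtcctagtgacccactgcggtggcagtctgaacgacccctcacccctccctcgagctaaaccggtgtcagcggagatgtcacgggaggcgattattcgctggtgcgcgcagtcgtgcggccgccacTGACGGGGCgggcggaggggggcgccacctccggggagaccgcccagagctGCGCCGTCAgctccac

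*Fam78a* had 6.95, 5.87, 7.38 and 4.58 CPM in control replicates 1 to 4 and 26.7, 29.5, 22.9 and 25.3 CPM in NOX4-deficient replicates 1 to 4. The groups did not overlap, and control replicate 4 was the lowest library. The log2 fold change was 2.08 (standard error 0.16), or 4.22-fold higher. *Nup214*, a nuclear pore gene that overlaps *Fam78a* on the opposite strand, did not pass the test and had the other sign. Control mice had 11.8 ± 1.13 CPM of *Nup214* and NOX4-deficient mice 9.61 ± 1.63 CPM (± SD over 4 mice), with an edgeR log2 fold change of -0.29 and an adjusted p of 0.261.

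*Sh3rf2* had 13.8, 14.6, 16.1 and 11.9 CPM in control replicates 1 to 4 and 35.5, 38.7, 39.9 and 44 CPM in NOX4-deficient replicates 1 to 4. Its log2 fold change of 1.49 (standard error 0.12), or 2.81-fold higher, was the smallest of the 5 in size. *Sec14l5* had 7.49, 10, 9.95 and 10.9 CPM in control replicates 1 to 4 and 31, 39.4, 32.3 and 27.6 CPM in NOX4-deficient replicates 1 to 4. Its log2 fold change was 1.76 (standard error 0.15), or 3.39-fold higher, and the groups of both genes lay apart. No annotated gene overlaps *Sh3rf2* or *Sec14l5* in GENCODE M21.

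**Figure D1:**
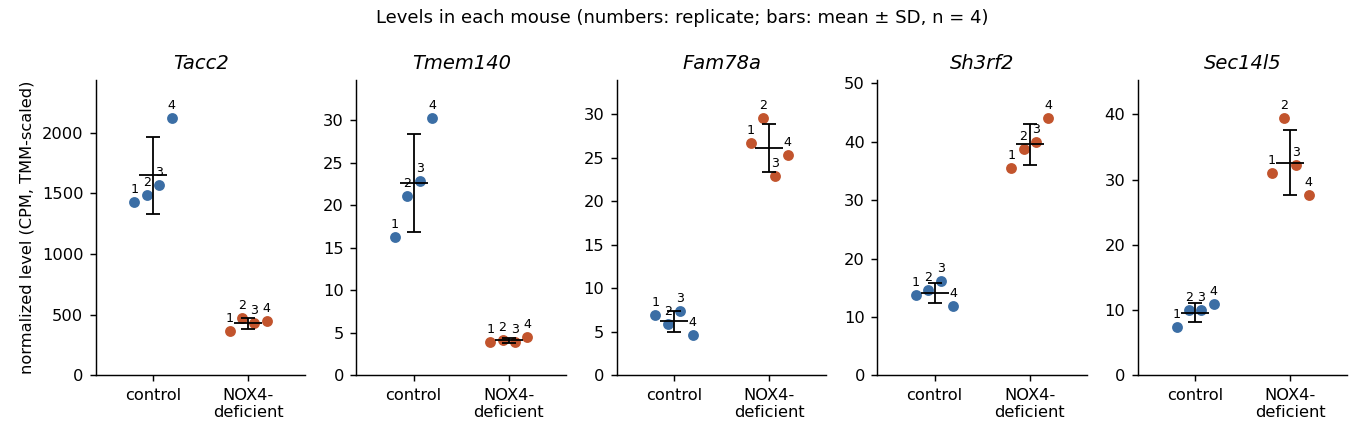
Level of each of the 5 genes in every mouse, in TMM-scaled CPM on axes that start at 0, with points numbered by replicate and bars for the mean ± SD (n = 4). In each panel the control and NOX4-deficient mice do not overlap, and control replicate 4 is the highest control for *Tacc2* (2117 CPM) and *Tmem140* (30.2 CPM) and the lowest for *Fam78a* (4.58 CPM) and *Sh3rf2* (11.9 CPM).

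Over all 12725 rows tested, 6.16% were called, at an adjusted p-value under 0.05 by edgeR's quasi-likelihood test and an absolute log2 fold change over 0.5. Of the rows, 3.48% were called lower and 2.68% higher, and in 16.2% the 2 genotypes did not overlap. All 5 genes met these marks, as the way they were chosen requires. By p-value *Tacc2* and *Tmem140* stood the 4th and 5th among the genes called lower, and *Fam78a*, *Sh3rf2* and *Sec14l5* the 1st, 2nd and 4th among those called higher. The genes next after the labelled ones were *Gabarapl1* (log2 fold change -1.58), an autophagosome protein gene, and *Mrtfa* (1.59), an actin-sensing transcription factor gene. *Nox4* itself had 3.27 ± 1.42 CPM in control mice against 2.07 ± 0.22 CPM in NOX4-deficient mice (± SD over 4 mice). Its groups overlapped, and its log2 fold change of -0.65 was not called (edgeR adjusted p = 0.207).

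The 5 genes spanned a wide range of abundance. Per kilobase of the longest coding transcript, *Tacc2* had 183 ± 35.1 CPM in control muscle (SD, n = 4), above 98.1% of the 11555 genes with a length. *Tmem140* followed with 8.65 ± 2.21 CPM per kilobase, and *Sh3rf2* with 2.76 ± 0.344. *Sec14l5* and *Fam78a* came last at 1.67 ± 0.256 and 1.51 ± 0.305 CPM per kilobase, and their ranges over mice overlapped (1.31 to 1.9 and 1.11 to 1.8). In NOX4-deficient muscle *Tacc2* remained the highest at 47.6 ± 4.97 CPM per kilobase. *Sh3rf2* (7.76 ± 0.694), *Fam78a* (6.35 ± 0.679) and *Sec14l5* (5.68 ± 0.87) followed, and each overlapped the next over mice. *Tmem140* came last at 1.58 ± 0.107 CPM per kilobase, and stood above 29.4% of genes where it had stood above 66.9% in control muscle. This place rests on the length taken. With the median length of its coding transcripts *Tmem140* had 47.8 CPM per kilobase in control and 8.76 in NOX4-deficient muscle. Its mean was then the second of the 5 in both. In NOX4-deficient muscle its range over mice (8.22 to 9.54) overlapped those of *Sh3rf2* (7.44 to 9.24) and *Sec14l5* (6.82 to 9.77). By that length *Tacc2* had 446 and 116 CPM per kilobase, *Sec14l5* 2.38 and 8.07, and *Sh3rf2* 2.95 and 8.29, and *Fam78a*, with 1 transcript, kept its values.

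**Figure D2:**
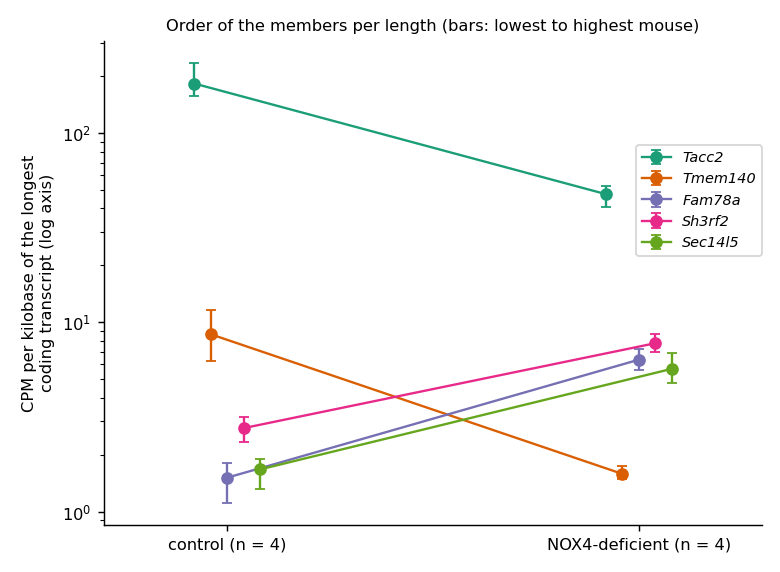
Mean level per kilobase of the longest coding transcript (log axis) in control and NOX4-deficient muscle, with bars from the lowest to the highest of 4 mice. The line of *Tmem140* crosses those of *Sh3rf2*, *Fam78a* and *Sec14l5*, from 8.65 to 1.58 CPM per kilobase, and *Tacc2* stays highest in both genotypes.

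The spread among mice of 1 genotype was smaller in NOX4-deficient than in control muscle for 4 of the 5 genes. The coefficient of variation of *Tmem140* was 25.5% in control and 6.76% in NOX4-deficient muscle, and those of *Tacc2* were 19.2% and 10.4%. For *Fam78a* they were 20.2% and 10.7%, for *Sh3rf2* 12.5% and 8.93%, and for *Sec14l5* 15.3% in both. Control replicate 4 was the highest control for *Tacc2* and *Tmem140* and the lowest for *Fam78a* and *Sh3rf2*. The control spreads of these genes rest in part on that library. These differences in spread were not tested or set against those of all rows. In the fit over all rows the biological coefficients of variation of the 5 genes ran from 0.131 (*Sh3rf2*) to 0.176 (*Tmem140*), near the trend for genes of their abundance (0.148 to 0.164). A choice by small p-values favors genes of low spread.

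Deviations of log2 CPM from the mean of each genotype, which the difference between genotypes does not enter, showed how the genes varied together over the 8 libraries. *Tacc2* and *Tmem140* had a Pearson correlation of 0.82, a description over libraries shared by every gene. It was 0.47 without control replicate 4, in which *Tacc2* lay 0.38 and *Tmem140* 0.45 above the control mean on the log2 scale, whereas *Fam78a* lay 0.41 and *Sh3rf2* 0.24 below it. *Fam78a* and *Sh3rf2* had a correlation of 0.54, which was -0.07 without that library. The correlations of *Fam78a* with *Tacc2* (-0.6) and *Tmem140* (-0.61) were 0.2 and 0.06 without it. *Sec14l5*, unlike *Fam78a* and *Sh3rf2*, was above its control mean in control replicate 4. It correlated at 0.58 with *Tacc2* and 0.6 with *Tmem140* (0.44 to 0.74 and 0.12 to 0.83 with 1 library left out). Without control replicate 4 these correlations of *Sec14l5* were 0.47 and 0.49. Those of *Sh3rf2* with *Tacc2* and *Tmem140* were -0.33 and -0.26 over all libraries, and 0.68 and 0.72 without control replicate 4.

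**Figure D3:**
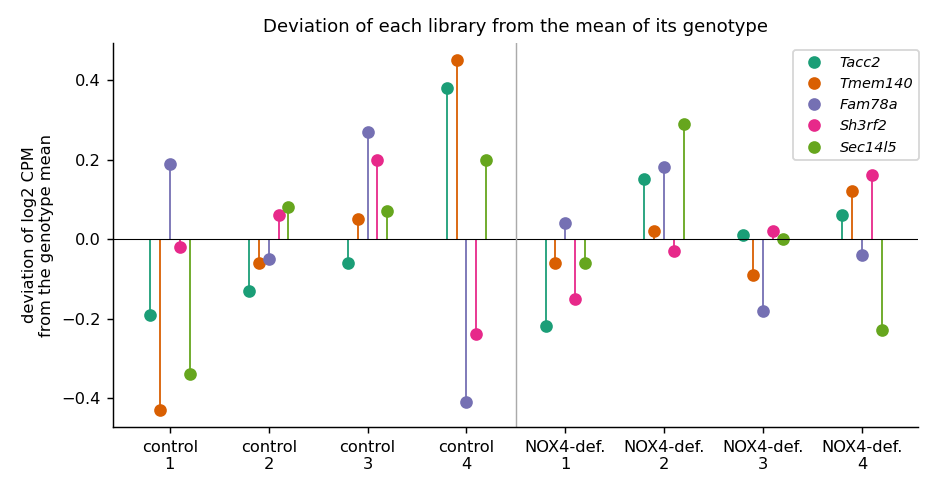
Deviation of log2 CPM of each gene in each library from the mean of its genotype, with 1 color per gene. In control replicate 4 *Tacc2*, *Tmem140* and *Sec14l5* lie above the line (0.38, 0.45 and 0.2) and *Fam78a* and *Sh3rf2* below it (-0.41 and -0.24).

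The genes most like each of the 5 by these deviations, among 12694 compared over 8 libraries, differed from one gene to the next. For *Tacc2* they were *Fmo5* (r = 0.991), *Srsf11* (0.988) and *Trim25* (0.983), for *Tmem140* *Inpp4a*, *Zfp37* and *Abhd13* (0.971 each), and for *Fam78a* *Eepd1* (0.96), *Gm32200* (0.952) and *Nrde2* (0.949). For *Sh3rf2* they were *Synpo2* and *Trim55* (0.985 each) and *Rhoq* (0.973), and for *Sec14l5* *Znf48* (0.975), *Slc8a1* (0.97) and *Kazn* (0.967). With so few libraries high correlations were common, and 1 in 100 genes reached 0.81 to 0.91 with each of the 5. Of these 15 genes, *Inpp4a* (log2 fold change -0.55, edgeR adjusted p = 0.0108) and *Gm32200* (1.45, edgeR adjusted p = 0.0136) were called between genotypes, where 6.16% of all rows were called.

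The families of the 5 genes were examined through 9 paralogs, whose values had no part in the choice of the 5. Of these, 5 passed the filter on low counts, 2 were called higher and none lower, against 2.68% of all rows called higher. *Fam78b*, the sole paralog of *Fam78a*, had 1.74, 1.85, 1.71 and 2.55 CPM in control replicates 1 to 4 and 4.45, 5.16, 4.41 and 4.69 CPM in NOX4-deficient replicates 1 to 4. The groups did not overlap. In edgeR *Fam78b* had a log2 fold change of 1.25 with a standard error of 0.19 and an adjusted p of 0.00312. *Fam78a* and *Fam78b* were thus both higher, and whether the counting shared reads between these paralogs is not given in the sources used here. *Sec14l1*, the nearest relative of *Sec14l5*, rose from 46.5 ± 2.83 CPM in control mice to 67.2 ± 5.84 CPM in NOX4-deficient mice (± SD over 4 mice). The edgeR log2 fold change of *Sec14l1* was 0.53 with a standard error of 0.1 and an adjusted p of 0.00831. Without NOX4-deficient replicate 2 its log2 fold change was 0.48, under the minimum for a call.

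The paralogs of *Tacc2* and *Sh3rf2* did not pass the test. *Tacc1* had 16 ± 1.27 CPM in control mice against 18.1 ± 2.98 CPM in NOX4-deficient mice (log2 fold change 0.18, edgeR adjusted p = 0.478). *Tacc3*, known from dividing cells, had 2.45 ± 0.348 and 2.46 ± 0.481 CPM (log2 fold change 0.01, edgeR adjusted p = 0.99). *Sh3rf1*, which encodes POSH, had 2.97 ± 0.569 and 3.14 ± 0.287 CPM (log2 fold change 0.08, edgeR adjusted p = 0.861; ± SD over 4 mice throughout). *Sh3rf3* and *Sec14l2* were under the filter with 2 to 11 and 2 to 7 counts per library, and *Sec14l3* and *Sec14l4* had 0 counts in every library. In control muscle *Tacc2* thus made up most of the counts of its family.

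**Figure D4:**
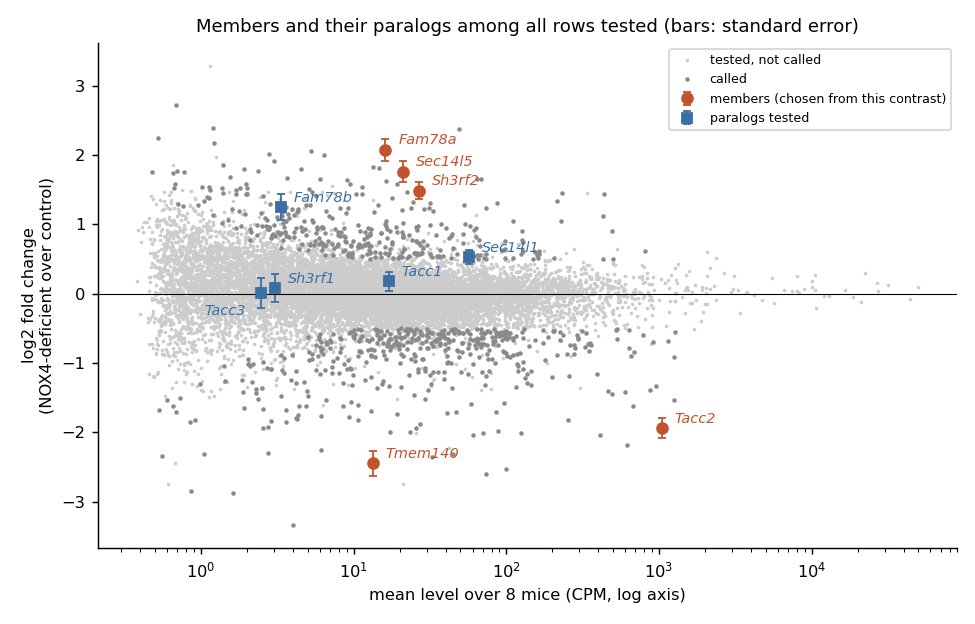
Log2 fold change against mean level (CPM, log axis) for all 12725 rows tested, with called rows in dark gray, the 5 genes as circles and their 5 tested paralogs as squares (bars, standard error). *Fam78b* (1.25) and *Sec14l1* (0.53) lie above 0 among the called rows, and *Tacc1*, *Tacc3* and *Sh3rf1* lie between 0.01 and 0.18.

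In a list of 27 partners of TACC proteins and other microtubule and centrosome genes, 22 were tested, 2 were called lower and 1 higher, where 3.48% of all rows were called lower and 2.68% higher. The median log2 fold change was -0.1 (0.014 over all rows). *Clip1*, which encodes a protein that tracks growing microtubule ends, had 1048, 1028, 1208 and 1803 CPM in control replicates 1 to 4 and 356, 579, 443 and 554 CPM in NOX4-deficient replicates 1 to 4. The groups did not overlap, and control replicate 4 was again the highest. In edgeR *Clip1* had a log2 fold change of -1.4 with a standard error of 0.2 and an adjusted p of 0.00229. *Mapre2*, an end-binding protein gene, fell by 0.73 on the log2 scale (edgeR adjusted p = 0.00283). *Tpx2*, a spindle assembly factor gene, had 5.98 to 8.45 CPM in control mice against 10.7 to 16.4 CPM in NOX4-deficient mice. It rose by 0.99 on the log2 scale (edgeR adjusted p = 0.00462).

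Among 27 genes around POSH and JNK, which include the mixed lineage kinases, JNK kinases and scaffolds, JNK phosphatases and protein phosphatase 1 subunits, 26 were tested and 0 were called by edgeR, with a median log2 fold change of -0.06. At an unadjusted p under 0.05 there were 8, and DESeq2 called 0. The share of all rows under that unadjusted p is not given here, for this list or those that follow. Log2 fold changes ran from -0.52 to 0.37, against 1.49 for *Sh3rf2*.

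Among 24 genes of CRAL-TRIO domain, phosphatidylinositol transfer and PRELI proteins, 18 were tested and 0 were called by edgeR, with 2 at an unadjusted p under 0.05 and 0 called by DESeq2. The median log2 fold change was 0.0, and the genes ran from -0.61 to 0.47. Of the 18, 8 had a positive and 10 a negative sign. *Pitpna*, a phosphatidylinositol transfer protein gene, had an edgeR adjusted p of 0.0342 at a log2 fold change of 0.47, under the minimum for a call.

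Of 29 interferon-stimulated genes, 25 were tested, 1 was called higher and none lower, where 2.68% of all rows were called higher. The median log2 fold change was 0.53, and 23 of the 25 had a positive sign, as did 52.3% of all rows, while *Tmem140* was lower. Of the 25, 13 had an unadjusted p under 0.05. In 1 of the 25 the genotypes did not overlap, where they did not in 16.2% of all rows. *Ifit3*, an antiviral gene, had 2.4, 1.8, 2.62 and 4.42 CPM in control replicates 1 to 4 and 10.8, 3.59, 6.99 and 6.1 CPM in NOX4-deficient replicates 1 to 4, with groups that overlapped. In edgeR *Ifit3* had a log2 fold change of 1.28 with a standard error of 0.34 and an adjusted p of 0.0407. Leaving out any 1 of control replicates 1 to 3 or NOX4-deficient replicates 1, 3 and 4, or applying no filter, ended the call, with an adjusted p of 0.103 at most over all alternatives tried.

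The surroundings of the 5 genes on the chromosomes were examined through the protein-coding genes that start within 500 kb of a start of theirs in the GRCm38 annotation. Of 70 such neighbors, 49 were tested and 1 was called (6.16% of all rows were called). The called gene was *Plpp7*, a nuclear envelope protein gene that is the nearest neighbor upstream of *Fam78a*, on the opposite strand. It had 49.4, 43.3, 48.7 and 31.8 CPM in control replicates 1 to 4 and 97.5, 74.2, 87.5 and 76.2 CPM in NOX4-deficient replicates 1 to 4. As for *Fam78a*, control replicate 4 was the lowest, and the groups did not overlap. In edgeR *Plpp7* had a log2 fold change of 0.95 with a standard error of 0.15 and an adjusted p of 0.00271.

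The nearest tested neighbors elsewhere did not pass the test. They were *Nsmce4a* (log2 fold change -0.07) and *Plekha1* (-0.4) beside *Tacc2*, *Agbl3* (0.92) and *Cyren* (-0.25) beside *Tmem140*, *Ppl* (-0.43) and *Nagpa* (0.13) beside *Sec14l5*, *Rbm27* (-0.29) beside *Sh3rf2*, and *Nup214* on the other side of *Fam78a*. *Plekha1* and a further neighbor of *Tmem140*, *Cnot4* (-0.41), had adjusted p-values under the threshold (0.0408 and 0.0328 by edgeR) at fold changes under the minimum.

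**Figure D5:**
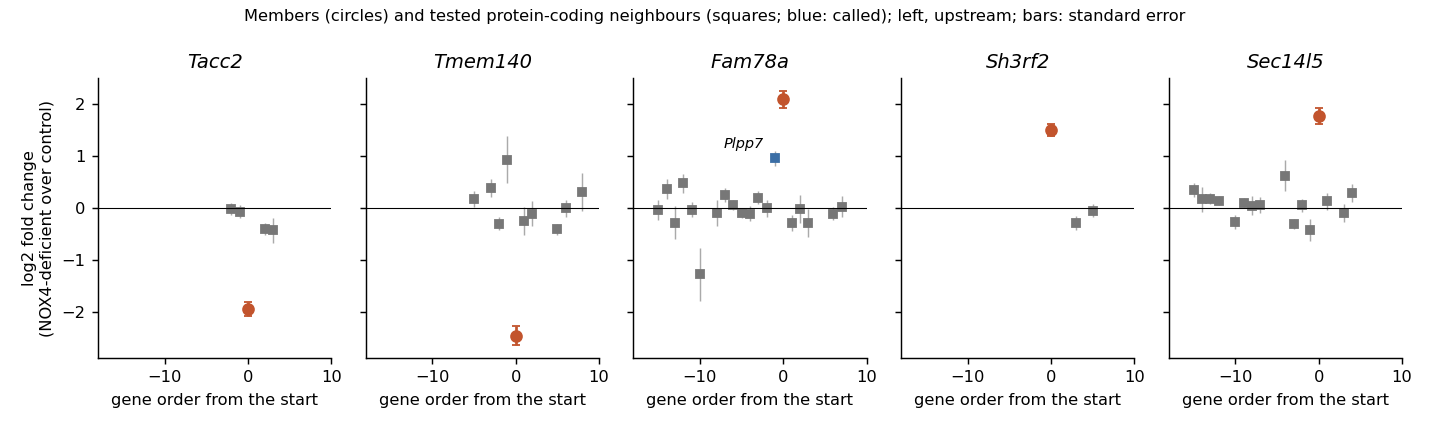
Log2 fold change (bars, standard error) of each of the 5 genes at position 0 and of its tested protein-coding neighbors in gene order, upstream to the left. Except *Plpp7* (0.95) beside *Fam78a*, none of the 49 neighbors was called, and the median over all 49 is -0.02.

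Markers of the muscle and of other cells were read in the same libraries. Fast-fiber markers summed to 130390 to 157469 CPM over control mice and 138744 to 165050 CPM over NOX4-deficient mice. No marker of any list was at 0 in every library. Hemoglobin and erythroid markers summed to 47.6 to 52.7 CPM over control mice and 72.3 to 159 CPM over NOX4-deficient mice. Of these 3 markers, 2 were called higher, where 2.68% of all rows were called higher. Denervation genes summed to 88.1 to 170 CPM over control mice and 58.7 to 81.3 CPM over NOX4-deficient mice. Of 7 tested, 0 were called by edgeR, where 6.16% of all rows were called, and 4 had an unadjusted p under 0.05. For slow-fiber, adipocyte, immune, endothelial, fibroblast and tendon, and nerve markers the summed levels of the genotypes overlapped and no gene was called by edgeR. Of all rows, 52.3% had a positive sign. Slow-fiber markers had a positive sign in 8 of 8 (median log2 fold change 0.64, 0 at an unadjusted p under 0.05). Immune markers had a negative sign in 6 of 6 (median -0.58, 2 at an unadjusted p under 0.05). At that unadjusted p there were also 2 of 5 fibroblast and tendon markers and 1 of 3 nerve markers, and 0 adipocyte, endothelial or fast-fiber markers. The part of blood, denervation and these other markers in the levels of the 5 genes was not tested.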

How the data were processed

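Gastrocnemius RNA of 4 control and 4 NOX4-deficient mice was analyzed. The deposited table holds raw, unnormalized gene counts with a column for each mouse, which the authors made with nf-core software. The submitters' processing notes name STAR and GRCm39, and the counter's settings are not given in the sources used here. All 8 columns matched a sample and 0 were left over. Of 32390 rows, 412 repeat a name, and a name stands for its row with most counts. The test was edgeR 4.0.16 under R 4.3.3 (TMM, filterByExpr, robust glmQLFit and glmQLFTest, genotype as the only term, all 8 samples, Benjamini-Hochberg adjustment over 12725 rows), with DESeq2 1.42.0 as an alternative. A call needed an adjusted p below 0.05 together with a log2 fold change beyond 0.5 in either direction, the thresholds of the study's methods. The fit was tested on simulated data. CPM precision is limited by counting at low levels, and p-values reflect the spread between mice.

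The members, lists and rules were chosen with earlier results of these data known. Genes named are the 5 members, *Nox4*, tested paralogs, the 3 called genes of smallest p in each list, called and nearest tested neighbors, the 3 genes most alike by Pearson correlation of deviations of log2 CPM (prior count 2) from the genotype mean, and the genes next in order of p-value. *Plekha1*, *Cnot4* and *Pitpna* were named after their values were seen. Lengths, overlaps and neighbors come from GENCODE M21 and promoters from RefSeq, both of GRCm38. That build differs from the authors', so that the only coordinates given are those of the RefSeq promoter windows on GRCm38, and the GENCODE lengths replaced the planned RefSeq ones. Promoter windows were searched without the 50 transcribed bases. Alternatives were DESeq2 size factors, library size only, no filter, a minimum of 10 counts per library, a quasi-likelihood fit without the robust option, stricter or looser thresholds, a replicate block, and leaving out each library in turn.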

Additional observations from a re-analysis of the deposited data

Results flagged for a closer look

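Among 58 groups of 4 libraries, 5 held a library whose gap to the nearest of the others, divided by the range, passed Dixon's 95% critical value, where chance gives about 1 in 20. *Nox4* in NOX4-deficient replicate 1 was the lowest of its group at 1.74 CPM, against 2.17 to 2.21 CPM in the others (ratio 0.918). *Fam78b* in control replicate 4 was the highest control at 2.55 CPM, against 1.71 to 1.85 CPM (ratio 0.832). *Cyren*, which overlaps *Tmem140*, was highest in the same library at 2.81 CPM, against 1.61 to 1.8 CPM (ratio 0.837). Fast-fiber markers summed to 157469 CPM in control replicate 3, against 130390 to 134015 CPM (ratio 0.866), and adipocyte markers to 80.8 CPM in control replicate 1, against 14.6 to 25.5 CPM (ratio 0.836). None of the 5 members had a library apart by this ratio in either genotype.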

How the results depend on the processing

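The log2 fold changes of the 5 members kept their sign under all 15 alternatives and moved by less than the spread between replicates. They ranged from -2 to -1.8 for *Tacc2*, -2.58 to -2.28 for *Tmem140*, 1.95 to 2.19 for *Fam78a*, 1.41 to 1.57 for *Sh3rf2* and 1.66 to 1.85 for *Sec14l5*. The 784 calls over all rows became 252 at an adjusted p under 0.01, and 499 to 712 with 1 library left out, fewest without control replicate 4. They became 986 without a minimum fold change and 1017 by DESeq2, the most of any alternative. *Fam78b*, *Clip1*, *Mapre2*, *Tpx2* and *Plpp7* were called under all 17 alternatives. The calls among paralogs ranged from 1 to 2 with 1 library left out, lipid transfer calls from 0 to 1, and interferon calls from 0 to 2. Without a minimum fold change there were 3 calls among neighbors and 1 in the lipid transfer list. Interferon calls were 2 with at least 10 counts in every sample, 3 by DESeq2 and 0 at an adjusted p under 0.01, and the cause was not tested.

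Whether the replicate numbers pair the samples is not stated in the sources used here. Deviations of same-numbered mice correlated at 0.223, 0.147, 0.041 and 0.0412, which cannot decide it. With the number as a block, 933 genes were called over all rows, 4 in the interferon list and 1 in the lipid transfer list. For *Cyren* and *Sh3rf1*, at a few CPM, the log2 fold changes had standard errors of 0.27 and 0.2. The absence of a call there does not exclude a small difference.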
